A study of Mus musculus with 15 samples.

Results

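The genes described here are those of the hnRNP and SR splicing factor families, as they were counted in the RNA of circulating extracellular vesicles (EVs) of mice. They were chosen by symbol alone: every gene symbol that starts with Hnrn, or with Srsf followed by a digit, except pseudogene symbols containing -ps. This gave 31 of the 43472 genes in the deposited counts, 20 of them hnRNP genes and 11 SR genes. Some hnRNP proteins carry other symbols, such as Ptbp1 and Pcbp1, and these were kept in a separate list of other splicing genes.

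RNA was sequenced in 15 libraries, of which 3 were WT-derived (C57BL/6), 6 dystrophic-derived (Sgcb null, lacking beta-sarcoglycan of the dystrophin-associated complex) and 6 hypertrophic-derived. The labels give the hypertrophic genotype as MAGIC F1 and the study's methods as Mstn-null, so the condition is used here without the genotype. The labels also name serum where the methods and the series' design name plasma. Each library held pooled EVs of 2 to 3 mice, aged 3 to 6 months by the methods, and its RNA was preamplified because there was little of it. In 6 libraries, which are replicates 4 to 6 of the dystrophic and 1 to 3 of the hypertrophic condition, the number in the title is not that of the counts, and the numbers of these conditions are crossed. Except for Hnrnpk, the fold changes named below are therefore also given with these libraries exchanged between the conditions. They are given with these libraries left out as well, where the gene still passed the filter. For Hnrnpk the overlap of the groups is given instead. The labels do not say that the pools shared no animal. The mice per model that the methods list for plasma collection are too few for 6 separate pools of 2 to 3. The n given below therefore counts libraries, and p-values measure the spread between these libraries and not between animals.

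Heterogeneous nuclear ribonucleoproteins (hnRNPs) coat nascent transcripts in the nucleus through RNA recognition motifs (RRMs) or KH domains, and many of them repress the use of nearby splice sites. SR proteins carry a domain rich in arginine and serine beside 1 or more RRMs, and typically bind exonic enhancers and help U1 and U2 snRNPs to find splice sites. Several members of both families shuttle to the cytoplasm, and HNRNPA2B1 has been described as a protein that sorts small RNAs into EVs. The present data measure the mRNAs of these genes and not the proteins.

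Many of these genes have processed pseudogenes, intronless copies of their mRNA elsewhere in the genome, and this bears on how their mRNA can be counted from reads of 50 bases. Of the windows of 50 bases along the main transcript, 91.0% were found unchanged in the transcript of another annotated gene for Hnrnpa3, and 67.3% for Hnrnpf. The share was 46.4% for Hnrnpa1, 40.6% for Hnrnpk, 31.5% for Srsf3 and 27.8% for Srsf5. For Hnrnpa3, 42 of the 48 genes that shared a window were pseudogenes. In contrast, Hnrnpa0, Hnrnpll, Hnrnpu, Srsf6, Srsf9, Srsf11 and Srsf12 shared no window. The stretches below, taken from the coding part of the GENCODE transcripts (mouse genome mm10), show what such a copy looks like. Capitals mark the bases that are identical in the pseudogene, and the lower case ends hold the first difference on either side.
Hnrnpa3: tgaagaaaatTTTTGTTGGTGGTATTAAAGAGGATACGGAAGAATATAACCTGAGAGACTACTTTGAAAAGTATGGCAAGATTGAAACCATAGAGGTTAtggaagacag
Hnrnpf: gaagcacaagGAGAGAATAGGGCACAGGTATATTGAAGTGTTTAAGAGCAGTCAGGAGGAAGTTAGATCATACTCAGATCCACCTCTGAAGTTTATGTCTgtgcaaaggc
Hnrnpk: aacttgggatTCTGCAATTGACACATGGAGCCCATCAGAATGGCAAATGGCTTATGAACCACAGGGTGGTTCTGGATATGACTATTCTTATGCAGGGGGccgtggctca
Srsf5: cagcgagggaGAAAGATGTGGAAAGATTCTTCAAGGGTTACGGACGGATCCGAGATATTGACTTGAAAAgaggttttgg

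The Hnrnpa3 stretch lies in exon 4 of 11 at chr2:75661927-75662035 on the plus strand, and 89 of its bases stand unchanged in the pseudogene Gm14052. The Hnrnpf stretch lies in exon 3 of 3 at chr6:117924266-117924375 on the plus strand and shares 90 bases with Gm11793. The Hnrnpk stretch joins exons 12 to 14 of 16 within chr13:58393746-58394139 on the minus strand, with 89 bases in Gm4130, and that of Srsf5 lies in exon 2 of 8 at chr12:80946635-80946713 on the plus strand, with 59 bases in Gm12966. The deposited tables hold a line of their own for reads that aligned at more than 1 place, so a read from such a stretch need not be in the count of its gene. Srsf4 shared 65.4% of its windows with Gm12992, a transcript on the opposite strand of the same locus. Srsf2 shared 35.2% of its windows, Mettl23 being among the sources, and its exons overlap those of Mettl23 and Mfsd11 on the opposite strand. Whether reads were counted by strand is not given in the sources used here. Hnrnpu overlaps Cox20 on the opposite strand with its exons, though it shared no window. Hnrnpab shared 29.0% of its windows and overlaps Phykpl on the opposite strand. On the same strand, the exons of Hnrnpm (28.8% of windows shared) overlap March2 and those of Hnrnpul2 (6.17%) overlap AC129217.1, so counting by strand would not separate these. The counts of all these genes are therefore less certain than those of Srsf11, which shared no window and overlapped no exon of another gene.

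Library depth, as reads on genes, was 27227 at the lowest and 32563362 at the highest, and between 797 and 8968 genes had at least 1 read. WT replicate 1 held the 27227 reads, so 0 reads there allow up to 110 CPM, against 0.0921 CPM in the deepest library. Here CPM is the level of a gene, its reads scaled to 1000000 reads on all genes of the library. This allowance is 3 reads and covers counting error only, since preamplified copies are not independent molecules. The EV tetraspanin Cd9 had reads in all 15 libraries, while Cd81 was at 0 in 4 and Cd63 in 5. Summed over their lists, erythroid markers reached 22933 to 155950 CPM and platelet markers 9311 to 33256 CPM, against 0 to 2181 CPM for hepatocyte, 0 to 295 CPM for skeletal muscle and 0 to 210 CPM for nuclear RNA markers. Neutrophil markers summed to 6.65 to 1836 CPM, those of B and T cells to 2.22 to 955 CPM, and those of monocytes and macrophages to 203 to 3432 CPM. Of the markers listed, Myh4 of muscle, Camp of neutrophils, and Meg3 and Snhg11 of the nuclear RNAs were at 0 in every library. The rest of these lists had reads in at least 1 library, which was 6 of 7 muscle, 6 of 7 neutrophil and 3 of 5 nuclear RNA markers. Of the targeted genes, Mstn had no reads in any library, and Sgcb had 695 reads (365 CPM) in hypertrophic replicate 3 and 0 in the other 14 libraries, WT-derived ones included. That library is among the crossed 6, and an exchange would make it Sgcb null. The part of Sgcb that is deleted is not given in the sources used here, so its reads do not decide between the label and an exchange. They say nothing of the other 5. Fewer EVs of one source and less RNA per EV cannot be told apart in these bulk data.

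The first question was how many of the genes each library held. At least 1 read was counted for 3, 22 and 25 of the 31 genes in the WT-derived libraries. The dystrophic-derived libraries held 27, 24, 17, 8, 30 and 30 of them, and the hypertrophic-derived libraries 20, 25, 10, 9, 3 and 27. The WT-derived mean was 16.7 ± 11.9 (SD, n = 3), the dystrophic-derived one 22.7 ± 8.66 (SD, n = 6) and the hypertrophic-derived one 15.7 ± 9.71 (SD, n = 6), and the ranges of the conditions overlapped widely. No gene was detected in all 15 libraries, and none was at 0 in all of them.

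**Figure D1:**
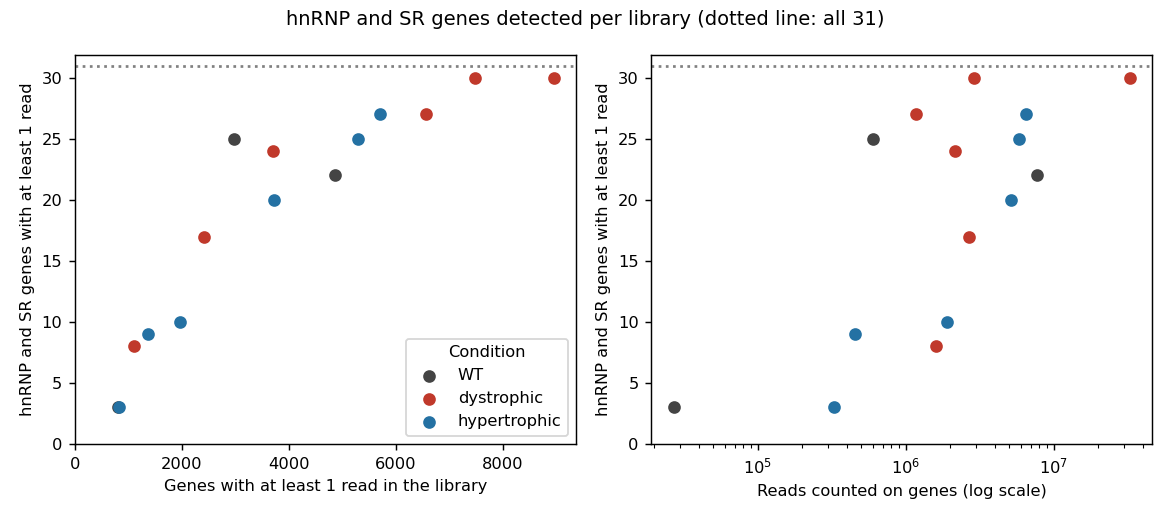
Number of the 31 hnRNP and SR genes with at least 1 read in each library (vertical axis), against the number of all genes with at least 1 read (left) and the reads counted on genes on a log scale (right); each point is 1 library, coloured by condition. The count ran from 3 in the libraries with 797 and 814 genes, whose points coincide on the left, to 30 in the one with 8968 genes, and the library with 1608699 reads held 8.

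Libraries with few genes in all also held few of these. WT replicate 1 and hypertrophic replicate 5, with 797 and 814 genes detected, each held 3. Dystrophic replicate 4 held 8 although 1608699 reads were counted in it, and hypertrophic replicate 3 held 10 at 1906406 reads. When all libraries were sampled down to 27227 reads, the means were 12.2 for the WT-derived, 18.7 for the dystrophic-derived and 11.8 for the hypertrophic-derived group.

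The detected genes were mostly either well covered or at 0. Of the 465 combinations of a gene and a library, 280 had reads, and of these 237 had more than 50 reads while 30 had 1 to 3. The share with more than 50 reads was 84.6%, near the 81.8% of all genes tested, so this pattern was not particular to these genes. For each combination the reads were also predicted from the gene's mean CPM in the other libraries of the condition and the depth of the library. Where at least 10 reads were predicted, 120 of 374 combinations were nonetheless at 0, which is 32.1%, against 48.2% over all 6887 genes tested and 56.1% over the 13281 genes with a read. These shares are a description, with no test of their difference. The median gene was found in 10 libraries, against 6 for the genes tested. SR genes were found in a median of 8 libraries and hnRNP genes in 10.

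**Figure D2:**
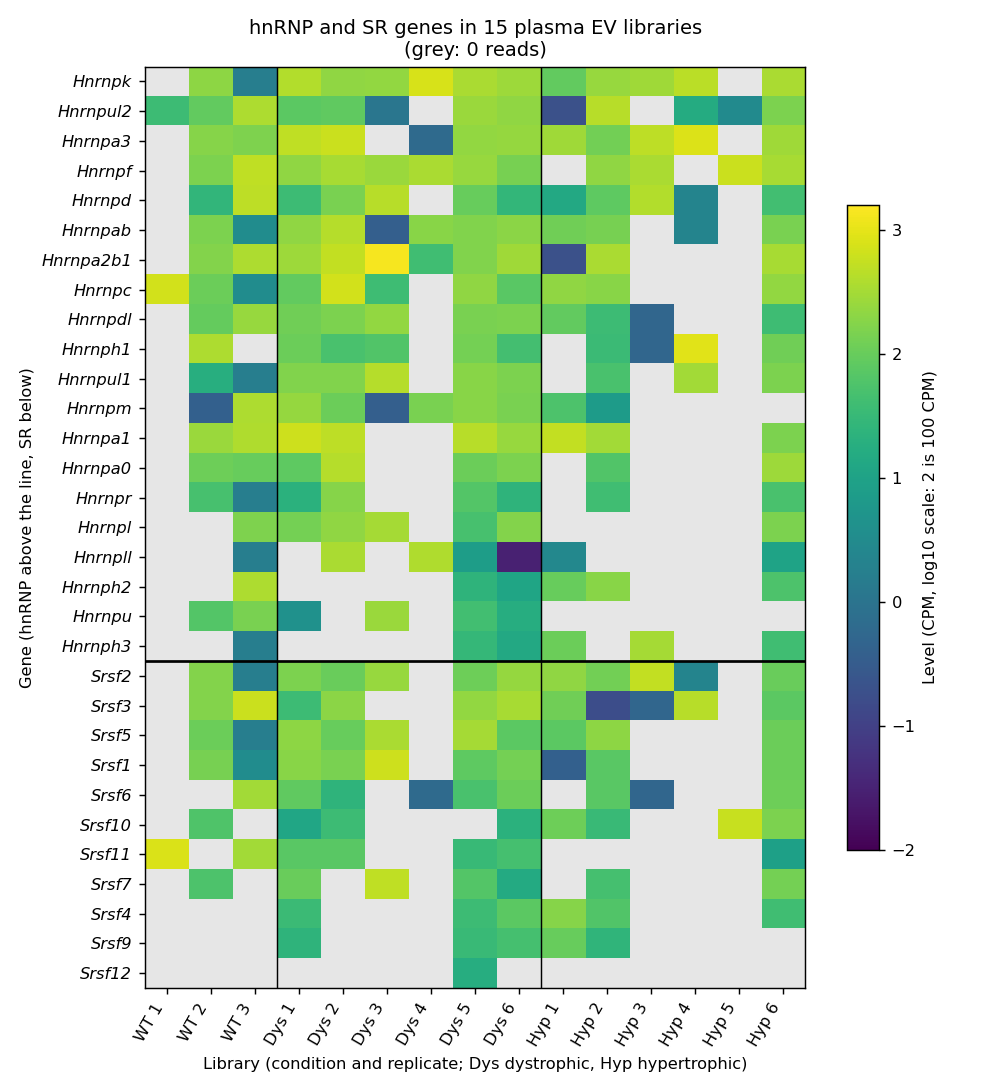
Level of each of the 31 genes (rows, hnRNP above the line and SR below, ordered by the number of libraries with reads) in each of the 15 libraries (columns), as CPM on a log10 colour scale, with grey for 0 reads. Hnrnpk and Hnrnpul2 at the top had reads in 13 libraries, Srsf12 at the bottom in 1, and no column or row was free of grey.

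Together the genes took a small share of each library. Their summed level was 1543, 2736 and 4821 CPM in the WT-derived libraries, between 1879 and 5841 CPM (median 4174) in the dystrophic-derived and between 1208 and 3735 CPM (median 2683) in the hypertrophic-derived ones. The means were 3033 ± 1659 (SD, n = 3), 4174 ± 1384 (SD, n = 6) and 2638 ± 865 CPM (SD, n = 6), and the ranges overlapped. As a share of the reads on genes this was 0.121% to 0.584%. The gene that led this sum changed from library to library: Srsf11 held 52.4% of it in WT replicate 1, Hnrnpf 50.9% in hypertrophic replicate 5 and Hnrnpk 41.7% in dystrophic replicate 4, whereas the leading gene Srsf3 held 8.91% in dystrophic replicate 6, the deepest library.

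To compare genes with each other, levels were divided by the length of the main transcript. On this scale of CPM per kilobase, averaged over all 15 libraries, Hnrnpa3 (159), Hnrnpa2b1 (154) and Hnrnpa1 (120) were the highest hnRNP genes, and Srsf2 (70.2), Srsf5 (65.1) and Srsf3 (55.7) the highest SR genes. Srsf12 (0.400), Hnrnpr (1.35) and Hnrnpu (4.63) were the lowest. The order differed between the conditions: among WT-derived libraries Hnrnpa1 (112) and Hnrnpc (108) led the hnRNP genes and Srsf11 (119) the SR genes, among dystrophic-derived ones Hnrnpa2b1 (264) and Srsf5 (110), and among hypertrophic-derived ones Hnrnpa3 (204) and Srsf2 (86.2). Several of these leads leaned on 1 library. In WT replicate 1, Hnrnpc stood at 279 from 19 reads and Srsf11 at 260 from 22 reads. Hnrnpa2b1 reached 809 in dystrophic replicate 3 and Hnrnpa3 509 in hypertrophic replicate 4. Averaged over the libraries of all conditions except dystrophic replicate 3, Hnrnpa2b1 was at 107. The value of Hnrnpr rests on an annotated transcript of 21452 bases. Neighbours in this order were not tested against each other, and every gene was at 0 in at least 2 libraries.

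Among the hnRNP genes, those of the A/B and D type carry a pair of RRMs and include the most abundant proteins of the family. Hnrnpa2b1, whose protein also binds RNA for transport, was at 0, 169 and 356 CPM in the WT-derived libraries, at 39.8 to 1344 CPM (median 278) in the dystrophic-derived and at 0 to 348 CPM (median 0.0977) in the hypertrophic-derived libraries. It had reads in all 6 dystrophic-derived libraries and in 3 of the 6 hypertrophic-derived ones, with overlapping ranges. Hnrnpa1, a splicing repressor that shuttles between nucleus and cytoplasm, was at 0, 263 and 379 CPM in WT-derived, 0 to 645 CPM (median 351) in dystrophic-derived and 0 to 516 CPM (median 75.3) in hypertrophic-derived libraries. Hnrnpa3, a close relative, was at 0, 180 and 153 CPM in WT-derived, 0 to 612 CPM (median 232) in dystrophic-derived and 0 to 843 CPM (median 286) in hypertrophic-derived libraries. In none of these genes were the groups apart.

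Hnrnpab was at 0, 148 and 3.32 CPM in WT-derived EVs, 0.373 to 427 CPM (median 196) in dystrophic-derived and 0 to 142 CPM (median 61.1) in hypertrophic-derived EVs. Hnrnpd, which encodes AUF1, a protein that binds AU-rich elements of unstable mRNAs, was at 0, 26.7 and 479 CPM in WT-derived, 0 to 435 CPM (median 66.7) in dystrophic-derived and 0 to 401 CPM (median 28.0) in hypertrophic-derived EVs. Its relative Hnrnpdl was at 0, 91.6 and 248 CPM in WT-derived, 0 to 232 CPM (median 145) in dystrophic-derived and 0 to 89.3 CPM (median 18.5) in hypertrophic-derived EVs. Each of these ranges included values near 0 in every condition. Hnrnpa0 had reads in 8 libraries, in which it ranged from 61.2 to 425 CPM.

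Hnrnpc, whose protein binds uridine-rich stretches of nascent RNA, was at 698, 105 and 3.32 CPM in the WT-derived libraries. It was among the 3 genes with reads in WT replicate 1, where the 698 CPM stand for 19 reads. It reached 0 to 689 CPM (median 83.2) in dystrophic-derived and 0 to 225 CPM (median 93.5) in hypertrophic-derived libraries. The F/H proteins bind runs of G. Hnrnpf was at 0, 151 and 497 CPM in WT-derived, 135 to 346 CPM (median 255) in dystrophic-derived and 0 to 615 CPM (median 276) in hypertrophic-derived libraries and was at 0 in none of the 6 dystrophic-derived ones. Hnrnph1 was at 0, 368 and 0 CPM in WT-derived, 0 to 129 CPM (median 56.4) in dystrophic-derived and 0 to 911 CPM (median 18.02) in hypertrophic-derived libraries. The 911 CPM stood alone in hypertrophic replicate 4. Hnrnph2 and Hnrnph3 each had reads in 6 libraries, up to 364 and 323 CPM.

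Hnrnpk encodes a KH domain protein that binds C-rich RNA and single-stranded DNA and takes part in transcription, splicing and translation. It was at 0, 203 and 1.66 CPM in the WT-derived libraries, at 212 to 783 CPM (median 312) in the dystrophic-derived and at 0 to 455 CPM (median 272) in the hypertrophic-derived ones. All 6 dystrophic-derived libraries thus stood above all 3 WT-derived ones, the lowest at 212 and the highest WT-derived at 203 CPM. It was 1 of 30 genes tested, beside 0.755% of all genes tested (0.479% with dystrophic-derived EVs higher), and no other of the 30 had groups without overlap in this comparison. In hypertrophic-derived EVs against WT-derived and against dystrophic-derived ones, 0 of 30 were without overlap, beside 0.45% and 0.16% of all genes tested. The fitted log2 fold change was 2.18 (SE 2.17, edgeR quasi-likelihood adjusted p = 0.761), which is within the spread between libraries. With the 6 crossed libraries left out, 3 of the genes did not overlap (Hnrnpk, Hnrnpul1 and Srsf1, beside 4.57% of all genes tested on the higher side), and Hnrnpdl, Hnrnpm and Srsf1 lay lower in hypertrophic-derived than dystrophic-derived EVs without overlap (beside 3.67%). With them exchanged, the lowest dystrophic-derived value was 87.5 CPM and the groups overlapped.

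**Figure D3:**
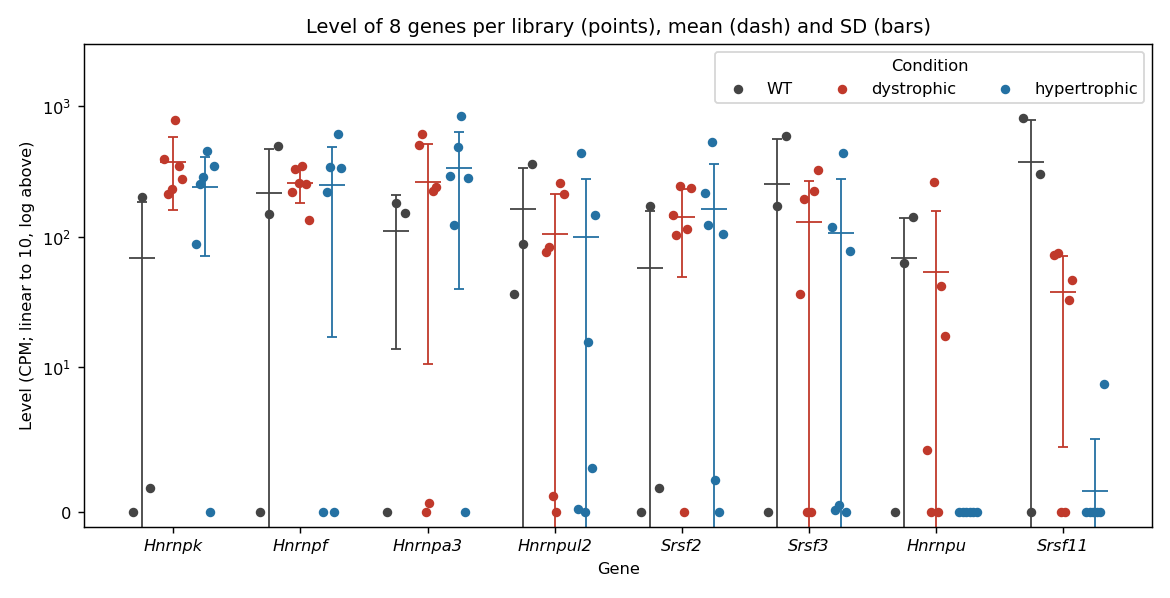
Level in CPM (linear up to 10 and log above) of 8 genes in each library, as points, with the mean as a dash and the SD as bars, for the 3 WT-derived, 6 dystrophic-derived and 6 hypertrophic-derived libraries. For Hnrnpk all dystrophic-derived points lie above the WT-derived ones; for Hnrnpu all 6 hypertrophic-derived points lie at 0, and so do 5 of 6 for Srsf11.

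The L type proteins bind CA-rich RNA and act in alternative splicing in lymphocytes among other cells. Hnrnpl and Hnrnpll had reads in 7 libraries each, up to 318 and 375 CPM. Hnrnpm was at 0, 0.388 and 362 CPM in WT-derived, 0.373 to 237 CPM (median 142) in dystrophic-derived and 0 to 54.9 CPM (median 0) in hypertrophic-derived libraries. It had reads in all 6 dystrophic-derived and in 2 hypertrophic-derived libraries, and the ranges overlapped. Hnrnpr had reads in 8 libraries, up to 183 CPM.

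The U type genes encode large nuclear proteins that bind RNA and, in the case of Hnrnpu (scaffold attachment factor A), the nuclear scaffold. Hnrnpul1 was at 0, 18.1 and 1.66 CPM in WT-derived, 0 to 413 CPM (median 164) in dystrophic-derived and 0 to 297 CPM (median 25.9) in hypertrophic-derived libraries. Hnrnpul2 was at 36.7, 87.5 and 362 CPM in WT-derived, 0 to 258 CPM (median 80.4) in dystrophic-derived and 0 to 437 CPM (median 9.28) in hypertrophic-derived libraries, and 5 of its 13 libraries held 1 to 9 reads. Neither separated the conditions.

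Hnrnpu was at 0, 63.4 and 143 CPM in the WT-derived libraries, which is 0, 491 and 86 reads. The dystrophic-derived libraries held 5, 0, 700, 0, 121 and 561 reads, or 0 to 261 CPM (median 10.7), and the 6 hypertrophic-derived libraries held 0 reads. Mean Hnrnpu was therefore at least 21.8-fold lower in hypertrophic-derived EVs compared with WT-derived and at least 17.2-fold lower compared with dystrophic-derived EVs, taking 3 reads per library as the limit of a count of 0. This allowance covers counting error only, and edgeR called neither difference (quasi-likelihood adjusted p = 0.267 and 0.123). The fold limits were 10.1-fold without WT replicate 3 and 4.02-fold without dystrophic replicate 3, and with the 6 crossed libraries left out 12.7-fold and 16.3-fold. With them exchanged, 2 hypertrophic-derived libraries held Hnrnpu reads, so no limit could be given. The ranges overlapped all the same, because 1 WT-derived and 2 dystrophic-derived libraries also held none.

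The SR proteins with a pair of RRMs are encoded by Srsf1, Srsf4, Srsf5, Srsf6 and Srsf9. Srsf1, the classical splicing activator SF2/ASF, was at 0, 135 and 3.32 CPM in WT-derived, 0 to 627 CPM (median 137) in dystrophic-derived and 0 to 110 CPM (median 0.195) in hypertrophic-derived libraries. Srsf5 was at 0, 105 and 1.66 CPM in WT-derived, 0 to 341 CPM (median 150) in dystrophic-derived and 0 to 203 CPM (median 38.7) in hypertrophic-derived libraries. Both were at 0 in 3 hypertrophic-derived libraries and in dystrophic replicate 4. Srsf6 had reads in 9 libraries, up to 304 CPM. Srsf4 and Srsf9 had no reads in the WT-derived libraries and reached 177 and 95.9 CPM elsewhere, in 6 and 5 libraries.

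The SR proteins with 1 RRM are encoded by Srsf2, Srsf3, Srsf7, Srsf10, Srsf11 and Srsf12. Srsf2, also known as SC35 and found in nuclear speckles, was at 0, 172 and 1.66 CPM in WT-derived, 0 to 245 CPM (median 130) in dystrophic-derived and 0 to 535 CPM (median 114) in hypertrophic-derived libraries. Srsf3, the smallest SR protein, which also promotes mRNA export, was at 0, 172 and 595 CPM in WT-derived, 0 to 327 CPM (median 116) in dystrophic-derived and 0 to 441 CPM (median 38.9) in hypertrophic-derived libraries. Their ranges overlapped in every pair of conditions. Srsf7 and Srsf10 had reads in 7 and 8 libraries, up to 495 and 590 CPM.

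Srsf11 was at 808, 0 and 304 CPM in the WT-derived libraries, where the 808 CPM of WT replicate 1 stand for 22 reads. It was at 0 to 75.1 CPM (median 39.8) in the dystrophic-derived libraries and had reads in 1 of the 6 hypertrophic-derived ones, at 8.82 CPM. Srsf12 was the rarest gene, with 51 reads or 17.6 CPM in dystrophic replicate 5 and none elsewhere, and it was the 1 gene of the 31 that did not pass the filter on low counts.

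For the comparison of dystrophic-derived with WT-derived EVs, 30 of the genes could be tested. Of these, 18 had a fitted log2 fold change above 0 and 12 below, with a median of 0.63, beside a median of 1.38 and 70.1% above 0 over all 6887 genes tested. None of them was called by edgeR at an adjusted p under 0.05 (0.0145% of all genes tested were, which is 1 gene), none was under 0.05 before adjustment (2.02% of all genes), and DESeq2 called none (14.9% of all genes it adjusted). Srsf4 (log2 fold change 10.10, SE 5.85, edgeR adjusted p = 0.433) and Srsf9 (9.57, SE 5.90, edgeR adjusted p = 0.433) had the smallest p-values of the SR genes. Their WT-derived libraries were at 0, where the limit of 3 reads averages 38.5 CPM and exceeds the dystrophic-derived means of 25.03 and 17.3 CPM, so that no fold can be given. Among the hnRNP genes these were Hnrnpll (6.96, SE 4.79, edgeR adjusted p = 0.453) and Hnrnph2 (-4.26, SE 3.004, edgeR adjusted p = 0.471). WT replicate 3 was the only WT-derived library with reads of either, 1 of Hnrnpll and 219 of Hnrnph2. Without WT replicate 3, Hnrnph2 turned to 8.17 and Hnrnpll moved to 11.86. The WT-derived group was then at 0 for both, so these values are no measured folds. With the 6 crossed libraries exchanged, the values of Srsf4, Srsf9, Hnrnpll and Hnrnph2 were 10.56, 9.64, 5.76 and -1.57, and with them left out none of the 4 passed the filter.

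For hypertrophic-derived against WT-derived EVs, 12 genes were above 0 and 18 below, with a median of -0.52 beside 0.66 over all genes tested. Again edgeR called none of them at an adjusted p under 0.05 (0.029% of all genes tested), while 2 of 30 were under 0.05 before adjustment, both lower, beside 8.02% of all genes tested (6.35% lower). These were Hnrnpu (log2 fold change -11.50, SE 3.96, edgeR adjusted p = 0.267) and Srsf11 (-7.42, SE 3.16, edgeR adjusted p = 0.330), where the fitted value of Hnrnpu depends on the prior count. DESeq2 called both, at adjusted p = 0.0101 and 0.0440, beside 16.5% of all genes it adjusted. Hnrnpu entered these tests only through the dystrophic-derived libraries, and failed the filter when only the conditions compared were kept. The gene with the second smallest p of each family was Srsf4 (log2 fold change 10.58, SE 5.95, edgeR adjusted p = 0.430) and Hnrnpm (-4.00, SE 2.60, edgeR adjusted p = 0.430). No fold can be given for Srsf4, since its hypertrophic-derived mean of 46.4 CPM lies above the WT-derived limit of 38.5 CPM but falls to 20.3 CPM without hypertrophic replicate 1 and to 13.5 CPM without the crossed libraries. Its fitted value was 10.14 with these exchanged. Hnrnpm turned to 4.43 without WT replicate 3, and was at -0.66 with the crossed libraries exchanged and -11.56 with them left out. The hypertrophic-derived libraries then left were all at 0 for Hnrnpm, so the last value depends on the prior count as well. With the 6 crossed libraries exchanged, 2 of the hypertrophic-derived libraries held Hnrnpu reads, its log2 fold change was -2.71 (edgeR adjusted p = 0.860) and that of Srsf11 was -3.91 (edgeR adjusted p = 0.504). With them left out, the values were -10.74 (edgeR adjusted p = 0.605) and -6.46 (edgeR adjusted p = 0.619). Without hypertrophic replicate 6, the 1 library of its condition with Srsf11 reads, Srsf11 was at -12.64. The condition was then at 0 for Srsf11, so this value depends on the prior count as well.

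When hypertrophic-derived EVs were set against dystrophic-derived ones, 6 genes were above 0 and 24 below, with a median of -1.04 beside -0.52 over all genes tested, of which 37.4% were above 0. None was called by edgeR at an adjusted p under 0.05 (0.0145% of all genes tested), and 1 was under 0.05 before adjustment, beside 12% of all genes (11.4% lower). This was Hnrnpu (log2 fold change -10.42, SE 3.72, edgeR adjusted p = 0.123), which DESeq2 called (adjusted p = 0.00729, beside 3.89% of all genes it adjusted). Hnrnpu failed the filter when only these conditions were kept. The filter asks for a number of libraries set by the smallest group, which is 3 with the WT-derived libraries and 6 without. Hnrnpu had reads in 4 dystrophic-derived and 0 hypertrophic-derived libraries, so within this comparison it entered through the group where it was higher. Its log2 fold change was -10.11 (edgeR adjusted p = 0.726) without the 6 crossed libraries and -1.07 (edgeR adjusted p = 0.9997) with them exchanged. The second hnRNP gene by p was Hnrnpll (-5.47, SE 3.13, edgeR adjusted p = 0.644), and the first SR genes by p were Srsf11 (-4.59, SE 2.67, edgeR adjusted p = 0.678) and Srsf10 (3.10, SE 2.74, edgeR adjusted p = 0.9998). With the libraries exchanged, Hnrnpll turned to 0.43, Srsf11 was at -0.26 and Srsf10 at 1.43. With them left out, Hnrnpll did not pass the filter, Srsf11 was at -3.78 and Srsf10 at 3.45. Srsf11 was at -10.38 without hypertrophic replicate 6, which left its condition at 0, so this value depends on the prior count. The 3 comparisons share their control or treated libraries, so their directions are not independent of each other.

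**Figure D4:**
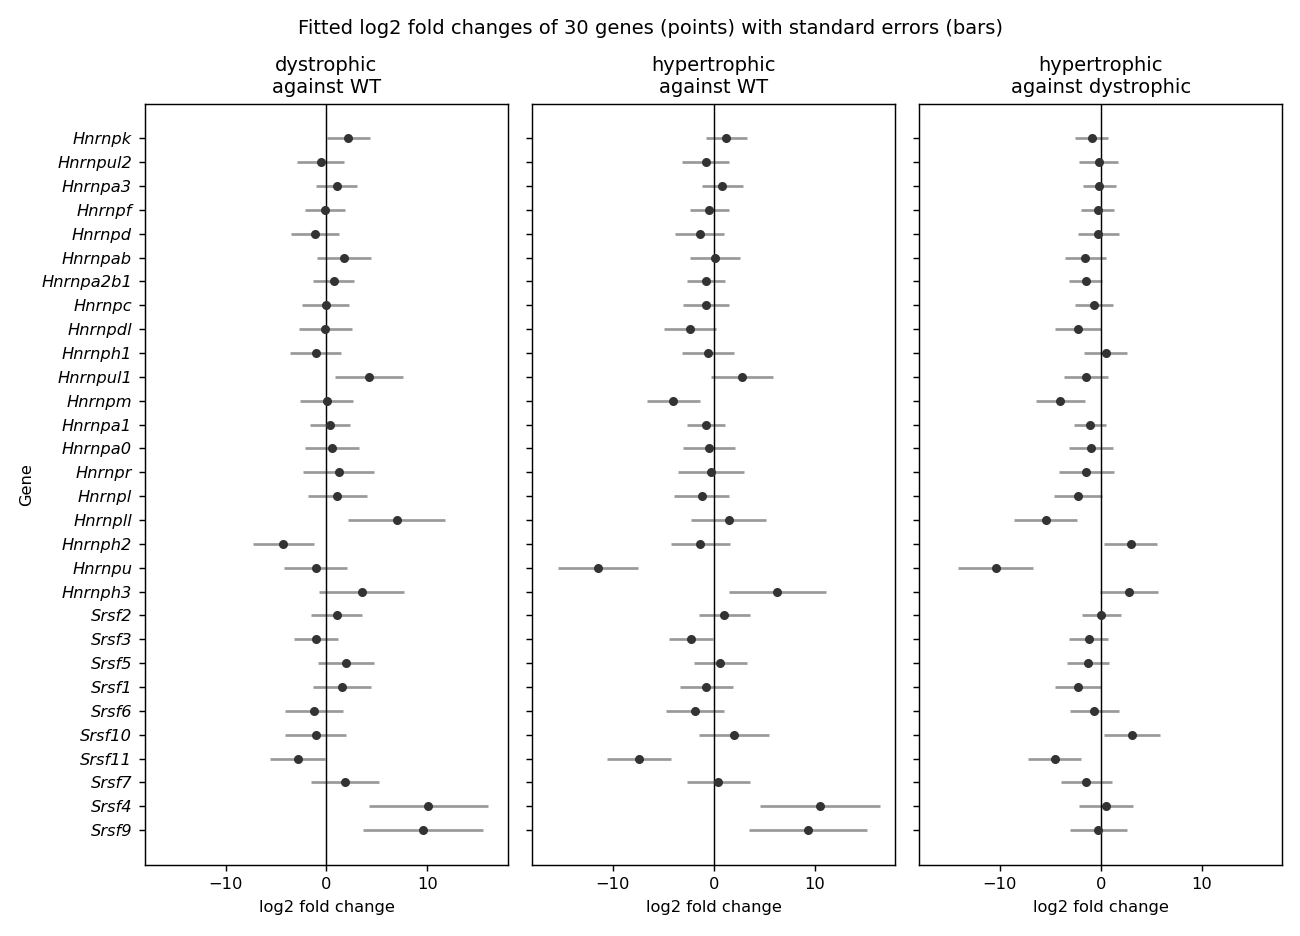
Fitted log2 fold changes (horizontal axis, points) with standard errors (bars) of the 30 genes tested (rows), in the 3 comparisons of conditions. Hnrnpu lies at -11.50 and -10.42 in the comparisons of hypertrophic-derived EVs, and Srsf4 and Srsf9 at 10.10 and 9.57 in dystrophic-derived against WT-derived EVs, none of them past an adjusted p of 0.05.

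Other measures moved along with the lower side of this last comparison. The median number of genes detected was 2840.5 in hypertrophic-derived and 5136 in dystrophic-derived libraries. Of the 7 erythroid markers, 5 were lower in hypertrophic-derived EVs at an unadjusted p under 0.05, and Hbb-bs was called at an adjusted p under 0.05. Their summed level was 29999 to 88291 CPM in hypertrophic-derived, 47208 to 155950 CPM in dystrophic-derived and 22933 to 88148 CPM in WT-derived libraries. Hepatocyte markers went the other way, with a median sum of 478 CPM in hypertrophic-derived against 48.0 in dystrophic-derived libraries. Their part in the levels of the splicing factor genes was not tested.

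The other genes of the splicing machinery were read from 7 lists with 84 genes, of which 74 could be tested. They comprised the U1 and Sm proteins, the U2 proteins with U2AF, the U5 and tri-snRNP proteins, the SR-related proteins with their kinases and importer, hnRNP proteins with other symbols, the exon junction complex, and other splicing regulators. They had reads in a median of 6.5 libraries, and 44.9% of the combinations with at least 10 reads predicted were at 0, beside the median of 10 libraries and the 32.1% of the hnRNP and SR genes. The 1 gene of these lists with reads in all 15 libraries was Mbnl1, a regulator of muscle and blood cell splicing, which was singled out after its values were seen. The regulators Mbnl3, Rbfox1, Esrp1 and Nova1 had no reads in any library.

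None of the 74 was called by edgeR at an adjusted p under 0.05 in any comparison, while DESeq2 called 9 (all higher), 9 (8 higher and 1 lower) and 0 of them in the order of the comparisons above, beside 14.9%, 16.5% and 3.89% of all genes it adjusted. At an unadjusted p under 0.05, 4 were higher and 0 lower in dystrophic-derived EVs when set against WT-derived ones. These were Snrpf of the Sm ring, Sf3b1 of the U2 snRNP, the cold-inducible Cirbp and Tia1. Their WT-derived libraries were at 0, where the limit of 3 reads averages 38.5 CPM, and their dystrophic-derived means were 115, 177, 133 and 146 CPM. Being at 0 in WT-derived EVs, they passed the filter only through libraries of the other conditions, so their direction was fixed beforehand. In hypertrophic-derived against WT-derived EVs, Sf3b1 was higher (mean 214 against 0 CPM) and Magohb of the exon junction complex lower (mean 0 against 241 CPM). In hypertrophic-derived against dystrophic-derived EVs, 3 were lower, namely Pcbp4, Magohb and Rbfox2, all at 0 reads in the hypertrophic-derived libraries. These shares, 5.41%, 2.70% and 4.05% of the genes tested, stand beside the 2.02%, 8.02% and 12% over all genes, both counted in either direction. A gene at 0 in a condition could only be lower there, so the counts by direction are a description. The median log2 fold changes of the 74 genes were 1.32, 0.38 and -0.67.

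Promoter sequences of the genes were described as well. RefSeq start sites (GRCm38.p6) were matched for 29 of the 31 genes, and Hnrnpll and Hnrnpul2 had no entry. In the 300 bases from 250 before to 50 after the start, median GC content was 68.3% (range 48.3% to 79.7%) and the median number of CpG dinucleotides 31 (range 7 to 52), beside medians of 52.7% and 7 over all 32817 promoters of the table. These differences were not tested. The GC box GGGCGG, searched on both strands, was found in 79.3% of them and in 35.6% of all promoters, and CCAAT in 55.2% and 37.4%. TATAAA was found in 13.8% and 13.6%. These are matches of letters and not sites shown to be bound.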

How the data were processed

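Bulk RNA-seq of EVs was analysed in 15 libraries. The authors deposited raw counts of reads per gene symbol and library. By the methods and the submitters' processing notes, single reads of 50 bases were aligned with TopHat to mm10 and counted with HTSeq, and DESeq was used for testing, which was not run here. The labels name a stranded library kit and the methods an unstranded one. The annotation used for counting is not given in the sources used here. The 5 summary lines of each table, between 57.9% and 99.2% of its numbers, were left out.

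Counts were tested with edgeR 4.0.16 (R 4.3.3): TMM, filterByExpr (6887 genes kept) and a quasi-likelihood fit to all 15 libraries without covariates, with Benjamini-Hochberg adjustment over all genes tested and a threshold of 0.05. DESeq2 1.42.0 was an alternative. The procedure was also run on simulated counts with a smaller spread between libraries than these data have. That run does not show how the procedure performs at the spread found here. The biological coefficient of variation was 3.04. Levels are CPM over all gene rows. Positions, transcripts (the longest principal one) and shared windows came from GENCODE, matched by symbol.

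The members and lists were chosen with earlier results of these data known. Values by library are given for genes with reads in at least 10 libraries and for the 3 genes per family with the highest level per kilobase, and fold changes for the 2 genes per family with the smallest edgeR p in a comparison. From a list of other splicing genes, the one with the smallest p could be named.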

Additional observations from a re-analysis of the deposited data

Results flagged for a closer look

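Single libraries that stood far from the rest of their condition were looked for in the dystrophic-derived and hypertrophic-derived groups, by the gap to the nearest value as a share of the group's range (Dixon's test at the 95% level), in 51 groups of values. Chance flags about 1 in 20 groups of normally distributed values, and CPM values with many zeros are not normally distributed. A library stood apart in 16 of the 51. In dystrophic replicate 3 these were Hnrnpa2b1 at 1344 CPM (next 526), Srsf1 at 627 (next 190), Hnrnpd at 435 (next 143) and Hnrnpu at 261 (next 41.9). Hnrnpc stood at 689 CPM in dystrophic replicate 2, where the next was 221, and Hnrnpk at 783 CPM in dystrophic replicate 4, where the next was 391.

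Among the hypertrophic-derived libraries, replicate 4 held Hnrnph1 at 911 CPM (next 119) and Srsf3 at 441 CPM (next 118), and replicate 1 held Srsf4 at 177 (next 61.2), Srsf9 at 95.9 (next 25.2) and Hnrnpm at 54.9 CPM (next 7.07). Hnrnpul2 reached 437 CPM in replicate 2, Hnrnpd 401 in replicate 3 and Srsf10 590 in replicate 5. In replicate 6, Hnrnpll was at 10.2 CPM and Srsf11 at 8.82 CPM, the latter with 0 in the other 5. The numbers of genes detected and the summed levels had no such library.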

How the results depend on the processing

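No paired analysis was possible because the replicate numbers only name libraries in accession order and pair none of them. edgeR called 0 of the genes in each comparison under each alternative run, down to a lowest adjusted p of 0.0836, while DESeq2 called 0, 2 and 1 in dystrophic against WT, hypertrophic against WT and hypertrophic against dystrophic. Over all genes, in the same order, calls were 1, 2 and 1 by edgeR, 933, 1031 and 243 by DESeq2, 0, 0 and 0 with no filter and also without mitochondrial and hemoglobin genes. In dystrophic against WT they were 3 without TMM, 2 with the 6 crossed libraries exchanged and 3 with them left out, and in hypertrophic against dystrophic 0 with them exchanged and 0 with them left out. With each library left out in turn, they ran from 1 to 2, 1 to 3 and 0 to 2.

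The members at an unadjusted p under 0.05, 0, 2 and 1 by edgeR, were 1 in dystrophic against WT and 2 in hypertrophic against dystrophic by DESeq2, and 2 in the latter with no filter. With only the conditions compared they were 1 in hypertrophic against WT and 0 in hypertrophic against dystrophic, and Hnrnpu failed the filter in both. With the libraries exchanged they were 0 in both. Leaving out single libraries gave 0 to 1, 1 to 3 and 1 to 3. Hypertrophic against WT had 1 without WT replicate 1 or hypertrophic replicate 1 or 2, and hypertrophic against dystrophic had 3 without hypertrophic replicate 6. Of 278 recomputed log2 fold changes of the named genes, 3 reversed: Hnrnph2 to 8.17 and Hnrnpm to 4.43 without WT replicate 3 (ranges over the libraries left out -5.10 to 8.17 and -5.99 to 4.43), and Hnrnpll to 0.43 with the libraries exchanged. WT replicate 3 held 219 reads of Hnrnph2 and 218 of Hnrnpm. WT replicates 1 and 2 held 0 of Hnrnph2, and 0 and 3 of Hnrnpm. The cause of the reversal of Hnrnpll was not tested. The 3 that passed the threshold were those of DESeq2. Without TMM, the median of all genes moved by 0.19, 0.36 and 0.15, and 20, 14 and 8 of 30 genes lay above 0 in place of 18, 12 and 6. The mean numbers of genes detected and the mean summed levels moved by less than 1 SD under each alternative run. Leaving out 1 library gave 12.5 to 23.5, 21.2 to 25.6 and 13.4 to 18.2 genes, and 2139 to 3779, 3841 to 4633 and 2418 to 2924 CPM, in WT-derived, dystrophic-derived and hypertrophic-derived EVs. The limits of folds and the levels per kilobase with fewer libraries were added after seeing the data, as was one more alternative: without WT replicate 1, and with the others sampled down to 328710 reads, the means were 21.0, 21.8 and 14.2 genes.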
